A study of Mus musculus with 6 samples.

Results

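The genes described here are 10 regulators of energy metabolism in skeletal muscle: the coactivators Ppargc1a and Ppargc1b, the nuclear receptors Ppara, Ppard, Esrra and Esrrg, the mitochondrial DNA factor Tfam, the catalytic subunits Prkaa1 and Prkaa2 of AMP-activated protein kinase (AMPK), and the deacetylase Sirt1. They were listed by name and taken from the array features that carry exactly 1 gene symbol, and all 10 had such a feature, of 14860 genes with one among 16755 features. Each of the 10 had a single feature, so no choice between features was needed. Total RNA of the tibialis anterior, a fast-twitch muscle at the front of the shin, was measured on 1-colour microarrays in male mice at 8 weeks of age. In 3 mice the transcription factor ATF4 was deleted from skeletal muscle only (ATF4 mKO); the other 3 were their littermate controls. Every mouse, controls included, had been fasted for 24 h, so no fed state is compared. The promoter that drove the deletion and the alleles of the controls are not given in the sources used here, and in a muscle-specific knockout the vessel, connective tissue and immune cells of the sample still carry Atf4. The comparison asks which muscle mRNAs differ when ATF4 is missing during a fast.

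The proteins form a network that sets how much fat and oxygen a muscle fibre uses. PGC-1 coactivators bind no DNA themselves; they dock on nuclear receptors such as the PPARs, which sense fatty acids, and the oestrogen-related receptors (ERRs), and so raise the transcription of genes for fatty acid oxidation and respiration. AMPK, switched on when ATP runs low, and SIRT1, which needs NAD+, both modify PGC-1α protein. TFAM coats mitochondrial DNA and takes part in starting its transcription. ATF4, a transcription factor of the amino acid and stress response, binds composite C/EBP-ATF response elements. Much of the control of AMPK, SIRT1 and PGC-1α acts on the proteins, which an mRNA array does not measure.

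None of the 10 regulators differed between ATF4 mKO and control muscle at an adjusted p under 0.05 in limma, where 0.0119% of all features passed (2 of 16755). None passed at an unadjusted p under 0.05 either, where 3.09% of all features did. They stood at 87.7% to 121% of control in ATF4 mKO muscle. The widest 95% limits of any of them were 72.6% and 151% of control, the first for Ppargc1a and the second for Ppara. For 7 of the 10 the log2 difference was smaller than 0.10 in size. The median of the 10 was -0.019 on the log2 scale, against 0.0013 over all features, with 4 above and 6 below 0. In a single gene, Tfam, the 2 groups did not overlap, with all ATF4 mKO values under all control values. That is 1 gene of 10, where 7.78% of all features had groups that did not overlap, 3.89% with ATF4 mKO lower.

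Values are deposited log2 expression values, so a difference of 1 is a doubling. Errors on levels are SDs over 3 mice. Errors on differences of single genes are limma's moderated standard errors (SE), while those of gene pairs are pooled from the SDs of the groups. The limma p-values were adjusted over all 16755 features. The adjusted p of each of the 10 genes rounded to 1.00 in limma. The Atf4 feature checked the labels: it averaged 6.92 ± 0.17 in ATF4 mKO muscle and 8.73 ± 0.06 in controls (SD, n = 3 each), a log2 difference of -1.80 ± 0.10 (SE). Array medians lay between 5.84 and 5.91, and the arrays correlated at 0.983 to 0.991. Of 9 listed skeletal muscle fibre markers, 7 were measured, and their mean was 11.90 to 11.95 in ATF4 mKO arrays and 11.88 to 11.93 in control arrays. Because the sample is whole muscle, fewer cells of a type and less RNA per cell cannot be told apart.

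The promoter windows of the regulators show whether the letters that ATF4 is known to bind lie near their start sites. RefSeq windows of build GRCm38.p6, from 250 bases before to 50 after a start site, were held for 9 of the 10 genes, in 12 windows. The C/EBP-ATF response element was searched as TGATGNAAN on both strands and was found in 1 of the 12 windows, that of Esrra, and in 3.95% of all 32851 windows. The full cyclic AMP response element TGACGTCA was in none of the 12 and in 1.79% of all windows. Its half-site TGACG, which the full element contains, was in 5 of the 12, those of Ppargc1a, Ppara, Ppard, Prkaa2 and Sirt1, and in 20.8% of all windows. The ERR element TCAAGGTCA was in none of the 12 and in 0.423% of all windows. The GABP site CCGGAAG was in that of Tfam and in 8.86% of all windows. A match of letters is not a site shown to be used. Only these windows were searched, so elements at other start sites of a gene, or farther from a start site, would be missed.

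Below are 3 of these windows, written 5′ to 3′ on the strand of the gene. Ppargc1a is shown as the central coactivator, with its CRE half-site in capitals (reverse strand, chr5:51567676-51567975, minus strand). Whether muscle uses the start site in this Ppargc1a window was not tested. Esrra is shown as the gene with the C/EBP-ATF match, which is in capitals (chr19:6921759-6922058, minus strand). Tfam is shown as the gene whose groups did not overlap, with its GABP match in capitals (chr10:71237995-71238294, minus strand).
Ppargc1a: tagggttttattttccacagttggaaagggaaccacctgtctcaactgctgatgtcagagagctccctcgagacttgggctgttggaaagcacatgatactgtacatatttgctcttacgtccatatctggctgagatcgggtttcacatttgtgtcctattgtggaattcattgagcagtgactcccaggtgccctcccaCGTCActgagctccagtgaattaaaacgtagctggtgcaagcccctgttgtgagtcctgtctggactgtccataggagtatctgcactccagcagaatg
Esrra: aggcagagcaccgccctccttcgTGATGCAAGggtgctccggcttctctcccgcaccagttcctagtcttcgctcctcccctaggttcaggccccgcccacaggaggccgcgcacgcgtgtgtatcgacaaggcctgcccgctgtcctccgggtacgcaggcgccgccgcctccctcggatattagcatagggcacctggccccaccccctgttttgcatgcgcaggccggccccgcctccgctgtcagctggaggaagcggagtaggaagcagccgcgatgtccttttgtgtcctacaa
Tfam: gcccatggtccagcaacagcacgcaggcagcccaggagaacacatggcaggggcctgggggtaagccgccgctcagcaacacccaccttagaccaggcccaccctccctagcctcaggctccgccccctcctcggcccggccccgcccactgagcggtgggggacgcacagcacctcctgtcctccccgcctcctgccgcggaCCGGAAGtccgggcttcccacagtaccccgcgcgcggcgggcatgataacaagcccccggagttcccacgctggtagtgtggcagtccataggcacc

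Among the coactivators, Ppargc1a, which encodes PGC-1α, had log2 values of 9.15, 9.17 and 9.03 in ATF4 mKO mice 1 to 3, against 9.10, 9.28 and 9.54 in control mice 1 to 3. The ATF4 mKO mice lay close together, and the controls were spread more widely, with control mouse 3 the highest of all 6 and control mouse 1 within the ATF4 mKO range. The groups averaged 9.12 ± 0.08 in ATF4 mKO muscle and 9.31 ± 0.22 in controls (SD, n = 3 each). The log2 difference was -0.19 ± 0.12 (SE), or 87.7% of control with a 95% interval of 72.6% to 106%. It was -0.073 without control mouse 3 and -0.29 without control mouse 1, so a single control mouse moved it by more than 1.5 times. Ppargc1b, which encodes the related PGC-1β, had 6.18, 6.28 and 6.35 in ATF4 mKO mice, against 6.19, 6.20 and 6.29 in controls. The groups overlapped, and the log2 difference was 0.043 ± 0.079 (SE), or 103% of control (90.8% to 117%). Leaving out ATF4 mKO mouse 3 gave 0.0040, and leaving out ATF4 mKO mouse 1 gave 0.089.

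**Figure D1:**
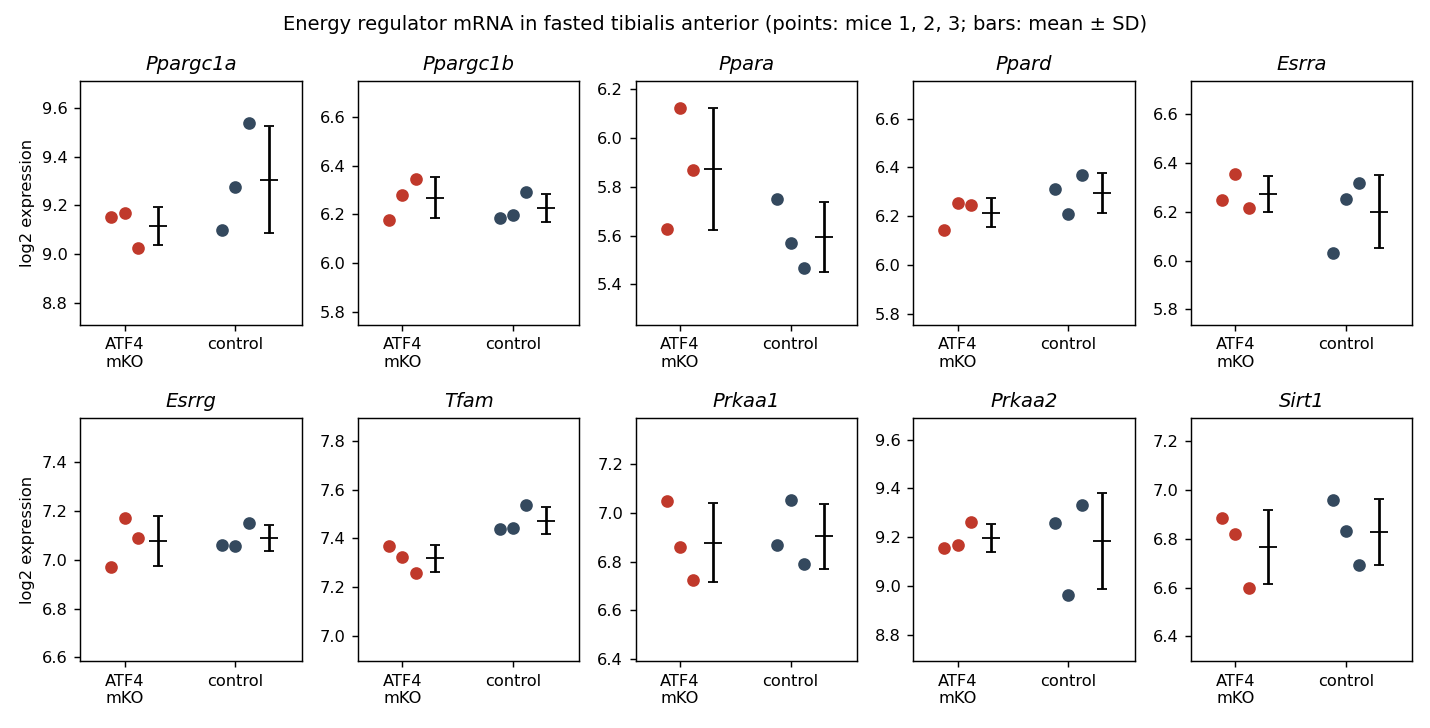
Log2 expression of the 10 regulators in each mouse; ATF4 mKO mice are red and control mice dark blue, in the order 1, 2, 3 within each group, with the mean and SD of 3 mice beside them. Every panel spans 1 log2 unit, and Tfam is the panel in which the groups do not overlap.

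Of the nuclear receptors, Ppara, the PPAR that drives fatty acid oxidation in fasting, had log2 values of 5.63, 6.12 and 5.87 in ATF4 mKO mice, against 5.75, 5.57 and 5.47 in control mice. ATF4 mKO mice 2 and 3 lay above every control, and ATF4 mKO mouse 1 lay between control mice 1 and 2. The groups averaged 5.87 ± 0.25 in ATF4 mKO muscle and 5.59 ± 0.14 in controls (SD, n = 3 each). The log2 difference of 0.28 ± 0.14 (SE), or 121% of control (97.3% to 151%), did not pass the test. Leaving out ATF4 mKO mouse 2 gave 0.15, and leaving out ATF4 mKO mouse 1 gave 0.40. The Ppara feature was at percentile 45.6 of the mean level of all features, the one regulator of the 10 below the median. Whether background affected its values was not tested. Ppara lies on chromosome 15, as Atf4 does, with 68 steps between them in the order of the 568 measured genes there. Prkaa1 is on the same chromosome, 299 steps from Atf4. Whether alleles near the deleted gene differ between the groups was not tested.

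Ppard, the PPAR most abundant in skeletal muscle, had 6.14, 6.25 and 6.24 in ATF4 mKO mice, against 6.31, 6.21 and 6.37 in controls. Control mouse 2 lay among the ATF4 mKO mice. The log2 difference was -0.081 ± 0.078 (SE), or 94.5% of control (83.3% to 107%). It was -0.045 without control mouse 3 and -0.12 without control mouse 2. Esrra, which encodes ERRα, a main partner of PGC-1α at respiratory chain genes, had 6.25, 6.35 and 6.22 in ATF4 mKO mice, against 6.03, 6.25 and 6.32 in controls. Control mouse 1 was lower than the other 5 mice, and without it the log2 difference of 0.071 ± 0.096 (SE) became -0.014. The Esrra level was 105% of control (90.0% to 123%), so the gene whose promoter window holds the C/EBP-ATF letters above was not called lower or higher. Esrrg, which encodes ERRγ, a receptor of oxidative fibres, had 6.97, 7.17 and 7.09 in ATF4 mKO mice, against 7.06, 7.06 and 7.15 in controls. The controls lay inside the range of the ATF4 mKO mice, and the log2 difference was -0.012 ± 0.082 (SE), or 99.2% of control (86.9% to 113%).

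Tfam had log2 values of 7.37, 7.32 and 7.26 in ATF4 mKO mice, against 7.44, 7.44 and 7.54 in control mice. Every ATF4 mKO mouse was below every control, though the gap between the nearest mice of the groups was small. The groups averaged 7.32 ± 0.06 in ATF4 mKO muscle and 7.47 ± 0.06 in controls (SD, n = 3 each). The log2 difference was -0.15 ± 0.07 (SE), or 89.8% of control with a 95% interval of 79.8% to 101%. The unadjusted p was 0.0702 in limma, rank 762 of the 16755 features, and the exact permutation p, two-sided, was 0.10, which no arrangement of 3 against 3 mice can go under. Without 1 mouse the difference ran from -0.18 to -0.12.

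For the AMPK catalytic subunits and for Sirt1 the groups overlapped. Prkaa1, the α1 subunit found in most tissues, had log2 values of 7.05, 6.86 and 6.73 in ATF4 mKO mice, against 6.87, 7.05 and 6.79 in controls. The groups covered nearly the same range, and the log2 difference was -0.026 ± 0.11 (SE), or 98.2% of control (82.3% to 117%). Prkaa2, the α2 subunit that predominates in muscle fibres, had 9.16, 9.17 and 9.26 in ATF4 mKO mice, against 9.26, 8.96 and 9.33 in controls. Control mouse 2 was the lowest of the 6; the log2 difference was 0.012 ± 0.11 (SE), or 101% of control (84.8% to 120%), and it was -0.099 without that mouse. Sirt1 had 6.88, 6.82 and 6.60 in ATF4 mKO mice, against 6.96, 6.83 and 6.69 in controls. Both groups spread over about the same range, with a log2 difference of -0.061 ± 0.11 (SE), or 95.9% of control (80.7% to 114%).

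**Figure D2:**
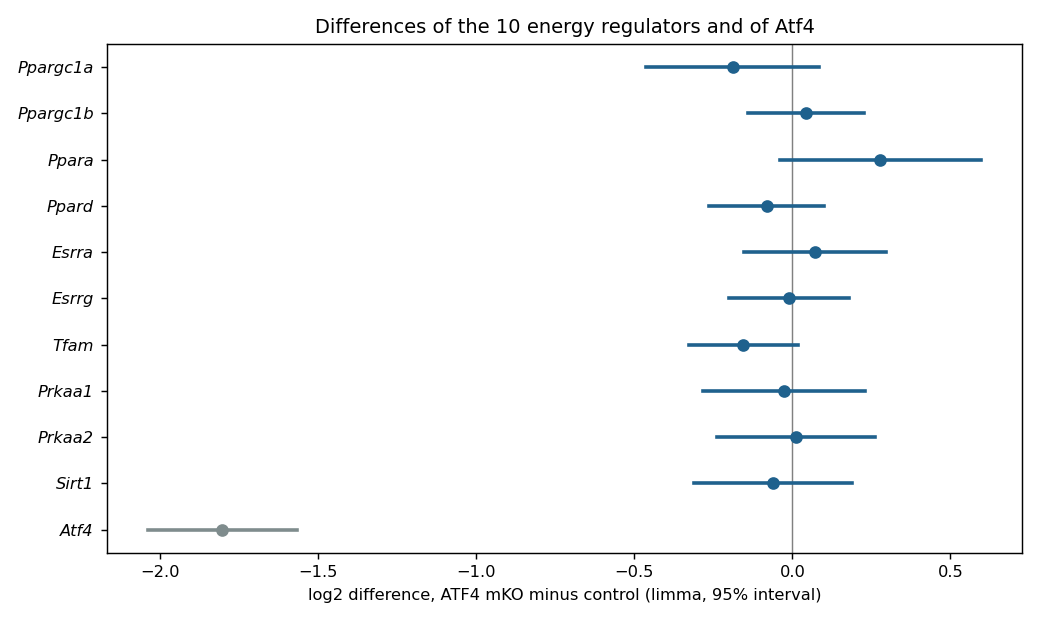
Log2 difference, ATF4 mKO minus control, of the 10 regulators and of Atf4 as the label check, with limma's 95% interval as the bar. The intervals of all 10 regulators include 0, whereas that of Atf4 runs from -2.04 to -1.57.

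Set side by side within each mouse, the regulators showed no shared direction by genotype. Relative to each gene's own mean over the 6 mice, 3, 5 and 4 of the 10 genes were above it in ATF4 mKO mice 1, 2 and 3, and 5, 5 and 7 in control mice 1, 2 and 3. The largest deviations were those of Ppara in ATF4 mKO mouse 2, at 0.39 above its mean, and of Ppargc1a in control mouse 3, at 0.33 above its mean. Control mouse 3 also held the lowest Ppara value, at -0.27 from the mean, and the highest Ppard, Tfam and Prkaa2 values. ATF4 mKO mouse 3 held the lowest values of 4 genes, Ppargc1a, Tfam, Prkaa1 and Sirt1. For each of the 10 regulators except Tfam, values of the 2 genotypes overlapped.

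**Figure D3:**
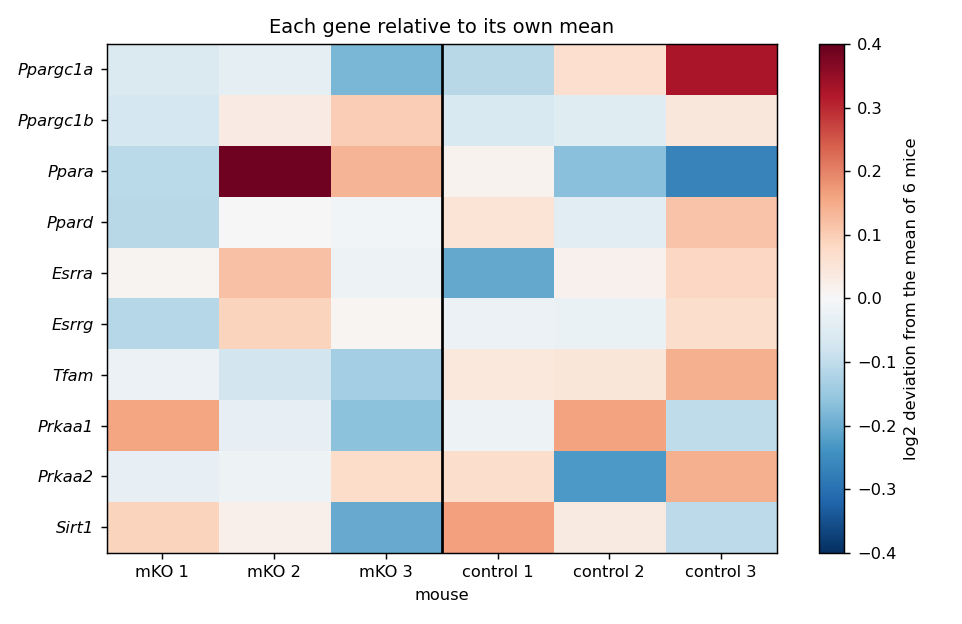
Log2 deviation of each regulator (rows) from its own mean over the 6 mice, by mouse (columns), with ATF4 mKO mice on the left and control mice on the right of the line. Red is above and blue below the mean; Ppara in ATF4 mKO mouse 2 (0.39) and Ppargc1a in control mouse 3 (0.33) stand out, and no column is of one colour.

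Related genes were also compared within each mouse, as the log2 value of one minus that of the other with the mean of the 6 mice set to 0, in 4 pairs chosen after the data were seen. For Ppara minus Ppard the values were 0.0015, 0.39 and 0.15 in ATF4 mKO mice, against -0.039, -0.12 and -0.38 in control mice. The groups did not overlap, by a margin of hundredths of a log2 unit between the nearest mice, and differed by 0.36 ± 0.15 (SE). Each SE of a pair was pooled from the SDs of the groups and was not moderated by limma. An exact two-sided permutation test gave p = 0.10, the smallest possible with 3 mice each, and 0.40 after Benjamini-Hochberg adjustment over the 4 pairs. Without 1 mouse the difference ran from 0.25 to 0.45. Ppargc1a minus Ppargc1b differed by -0.23 ± 0.13 (SE, exact permutation p = 0.20), Esrra minus Esrrg by 0.083 ± 0.084 (SE, exact permutation p = 0.50) and Prkaa1 minus Prkaa2 by -0.038 ± 0.23 (SE, exact permutation p = 1). In these 3 pairs the groups overlapped, and the adjusted p-values were 0.40, 0.67 and 1.

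**Figure D4:**
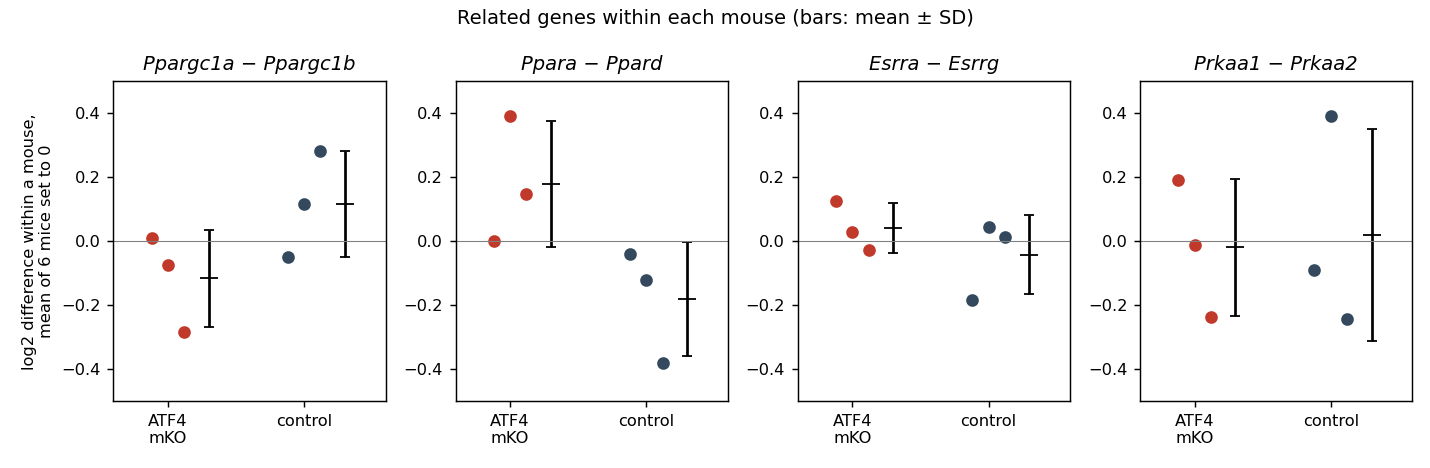
Log2 difference between related genes within each mouse, with the mean of the 6 mice set to 0; ATF4 mKO mice are red and control mice dark blue, with the mean and SD of 3 mice. In the Ppara minus Ppard panel the ATF4 mKO mice lie at 0.0015 to 0.39 and the control mice at -0.38 to -0.039.

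The wider pathways around the regulators were described with 9 lists holding 185 genes, and 153 of these were measured by a feature with 1 symbol. None of the 153 passed over all features, in either direction, and none had an unadjusted p under 0.05 in limma, where 3.09% of all features did. The groups did not overlap in 13 of them (8.50%), beside 7.78% of all features. Of these 13, Tfam, Mgme1 and Nmnat2 were lower in ATF4 mKO muscle and the rest higher. Over all features, 3.89% had groups that did not overlap with ATF4 mKO lower. List medians ran from -0.024 to 0.041 on the log2 scale, beside 0.0013 over all features. Single mice moved these medians: without 1 mouse they turned sign in 5 of the 9 lists, those of coactivators, nuclear receptors, mitochondrial DNA factors, AMPK subunits and sirtuins, and their range widened to -0.059 to 0.072. In what follows, the genes given for each list are those with its smallest p-values, and none of them passed.

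Of 16 coactivators and corepressors, 11 were measured, and none passed in either direction; 4 were above 0 and 7 below, with a median of -0.024. After Ppargc1a the smallest p-values belonged to Lpin1, a phosphatidate phosphatase that also acts with PGC-1α, at -0.058 ± 0.073 (SE), and Nrip1, a corepressor of nuclear receptors, at -0.069 ± 0.087 (SE). Of 22 nuclear receptors, 19 were measured and none passed; 11 were above 0 and 8 below, with a median of 0.039. Besides Ppara these were led by Thra, a thyroid hormone receptor, at 0.17 ± 0.09 (SE), whose groups did not overlap, and Nr4a2, an immediate early orphan receptor, at -0.19 ± 0.12 (SE).

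None of the measured genes that these receptors and coactivators are known to drive passed the test. Of 25 PPAR target genes, 18 were measured; none passed, 14 were above 0 and 4 below, beside 49.4% of all features below 0, and the median was 0.026. Acaa2, Etfdh and Acadm, enzymes of mitochondrial fatty acid oxidation, had 0.13 ± 0.07, 0.098 ± 0.069 and 0.096 ± 0.081 (SE). The groups did not overlap for Acaa2 and Etfdh and overlapped for Acadm. Pdk4, the kinase that shuts off pyruvate oxidation in fasting and was picked out here after its value was seen, stood at 11.42 ± 0.15 in ATF4 mKO muscle and 11.42 ± 0.14 in controls (SD, n = 3 each), 99.7% of control with a 95% interval of 83.6% to 119%. Of 25 PGC-1 and ERR target genes, 22 were measured; none passed, 16 were above 0 and 6 below, and the median was 0.026. Uqcrc1, a core subunit of respiratory complex III, had 0.13 ± 0.07 (SE), with groups that did not overlap. Mb, the oxygen store myoglobin, had 0.12 ± 0.08 (SE), and Fndc5, the precursor of irisin, 0.10 ± 0.08 (SE).

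For mitochondrial DNA transcription and replication, 21 of 23 genes were measured and none passed. In this list 13 were above 0 and 8 below, with a median of 0.017. The groups did not overlap in 4 of the 21, in both directions, beside 7.78% of all features. In this list Tfam and Mgme1, a mitochondrial exonuclease with -0.13 ± 0.09 (SE), were lower in every ATF4 mKO mouse. Twnk, the mitochondrial DNA helicase, and Lonp1, a matrix protease, were higher in every ATF4 mKO mouse, with 0.11 ± 0.07 (SE) for each. Mgme1 lay outside the rule for named genes and was picked after its value was seen.

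All 7 AMPK subunit genes were measured and none passed, with 3 above 0 and 4 below and a median of -0.017. Beyond the catalytic subunits, the regulatory γ subunits Prkag1, Prkag2 and Prkag3 had 0.071 ± 0.082, 0.085 ± 0.13 and -0.042 ± 0.11 (SE). The γ3 subunit, Prkag3, is largely restricted to fast muscle. Of 26 upstream regulators and substrates of AMPK, 21 were measured; none passed, 12 were above 0 and 9 below, and the median was 0.041. Crtc2, a coactivator of CREB, had 0.14 ± 0.08 (SE), Acacb, the acetyl-CoA carboxylase that restrains mitochondrial fat uptake, 0.12 ± 0.09 (SE), and Stradb, a pseudokinase partner of the kinase LKB1, 0.095 ± 0.071 (SE), the last with groups that did not overlap.

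Of 22 sirtuin and NAD genes, 18 were measured and none passed, with 9 above 0 and 9 below and a median of 0.0027. Nmnat2, an enzyme of NAD synthesis, had -0.13 ± 0.07 (SE) with groups that did not overlap, Nnmt, which methylates nicotinamide, had 0.15 ± 0.10 (SE), and Nmnat1, the nuclear NAD synthase, had 0.12 ± 0.10 (SE). Of 19 genes for upstream activators of Ppargc1a transcription, 16 were measured; none passed, 11 were above 0 and 5 below, and the median was 0.038. Creb1, which binds cyclic AMP response elements, had the smallest p of all 153 genes. It averaged 9.46 ± 0.13 in ATF4 mKO muscle and 9.70 ± 0.16 in controls (SD, n = 3 each), a log2 difference of -0.24 ± 0.11 (SE, unadjusted p = 0.0561 in limma, adjusted p = 1.00), and its groups overlapped. Foxo1, a forkhead factor of the fasting response, had 0.13 ± 0.09 (SE). Camk2b, a calcium-dependent kinase, had 0.088 ± 0.069 (SE), with groups that did not overlap.

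**Figure D5:**
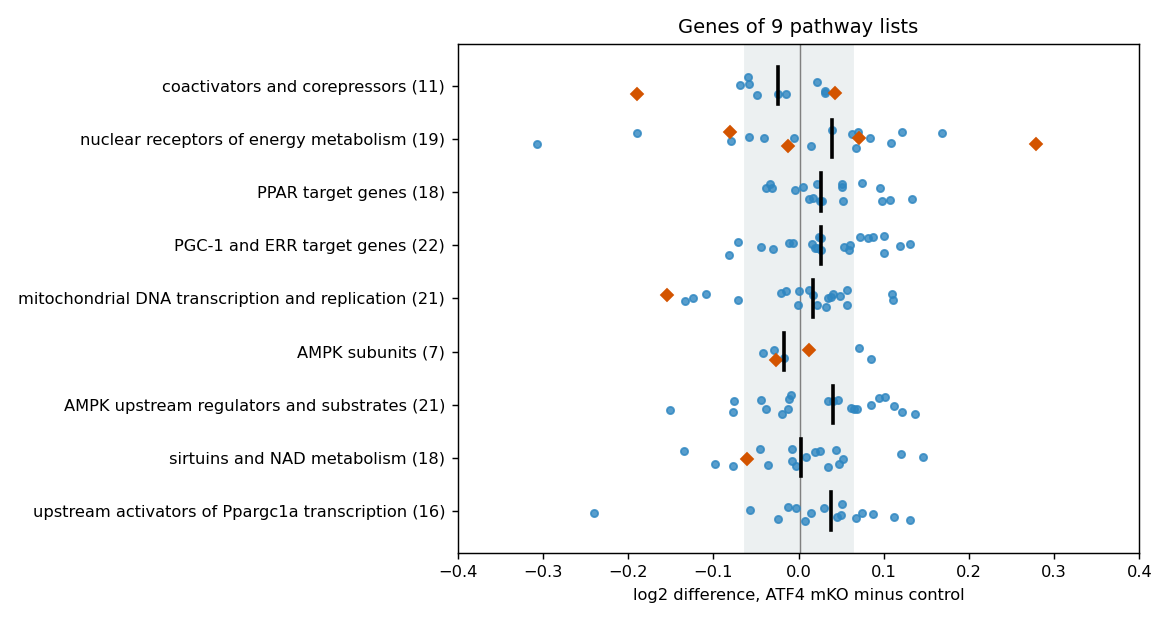
Log2 difference, ATF4 mKO minus control, of each measured gene in the 9 pathway lists, with the number measured in brackets; orange diamonds are the 10 regulators, blue points other genes, black ticks list medians, the grey band the middle 50% of all features and the grey line their median. List medians lie between -0.024 and 0.041.

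Markers of muscle fibres and of other cells in the sample are given as values beside these results. The fibre markers were 7 of skeletal muscle fibres and 4 of slow fibres. None of these fibre markers had an unadjusted p under 0.05 in limma or groups that did not overlap. Of 44 measured markers in 8 lists none passed over all features. At an unadjusted p under 0.05 in limma were 2 of the 44 (4.55%, beside 3.09% of all features), both higher. They were Tie1 in endothelium, at 0.17 ± 0.07 (SE), and Cnn1 in smooth muscle, at 0.35 ± 0.11 (SE). Both lay outside the rule for named genes and were picked after their values were seen. The groups did not overlap in 6 of the 44 (13.6%, beside 7.78% of all features), 2 of them in the endothelial and 2 in the smooth muscle list. The endothelial list had a median of 0.086 with 4 of 6 genes above 0, fibroblasts 0.10 with 5 of 6, smooth muscle and pericytes 0.041 with 3 of 5, and satellite cells -0.040 with 2 of 5. All 5 measured macrophage markers were above 0, with a median of 0.19; their mean per array was 6.11 to 6.24 in ATF4 mKO muscle and 5.88 to 6.19 in controls, and 3 of the 5 had a level in the lower 50% of features. The adipocyte list had a median of -0.064, with means per array of 5.47 to 5.58 in ATF4 mKO muscle and 5.51 to 5.61 in controls. Of its 6 genes, 2 were above 0, and 3 had a level above the median of all features. The slow fibre list, 4 genes, had a median of -0.011, with means of 8.12 to 8.73 in ATF4 mKO muscle and 8.48 to 8.65 in controls. The part of these cells in the values of the regulators was not tested.

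The features most like Ppargc1a over the 6 mice were sought among 7678 other features of 1 symbol and above-median level. They were Gcc1, Txndc9 and Ern1, with Pearson r of 0.999, 0.984 and 0.976 and Spearman rho of 1, 1 and 0.943. Without ATF4 mKO mouse 3 and control mouse 3, the mice farthest from the Ppargc1a median, r was 0.998, 0.844 and 0.988. They are the closest of many candidates over 6 points, 50 of which exceeded 0.90, so the values describe these mice and are given without a test.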

How the data were processed

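RNA was isolated with TRIzol, amplified as cDNA, fragmented and biotin-labelled for 1-colour arrays, per the labels' protocols. The authors deposited 1 log2 value per feature and mouse; GCOS, RMA and build mm9 are named in the submitters' processing notes, and versions are not given in the sources used here. The log2 scale was read from the values (1.63 to 13.0, none missing). RMA corrects background and quantile-normalises. How far differences between small signals are compressed was not measured here. Scanner files were not used here, so detection above background could not be called; precision is limited by the number of arrays.

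Gene names came from the platform annotation and were updated by Entrez identifier through RefSeq GRCm38.p6: 14996 had 1 symbol (14941 matched), 1019 several and 740 none. Where a gene had several features, that of highest mean level stood for it. ATF4 mKO was compared with control over all 16755 features in limma 3.58.1 (R 4.3.3; lmFit, eBayes, group as the only term), with Benjamini-Hochberg adjustment and a threshold of 0.05. Exact permutation tests used the 6 values of 1 gene or pair. The members and lists were chosen with earlier results of these data known. Named were the 10 regulators, Atf4, the genes with the 3 smallest p-values of each pathway list and the 3 features most correlated with Ppargc1a; exceptions are marked. Alternatives were a replicate block, normalisation, centring, filters, moderation, array weights and leaving out each mouse. The mice are separate animals; the titles number them 1 to 3 in each group, and nothing states that the numbers pair them.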

Additional observations from a re-analysis of the deposited data

How the results depend on the processing

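None of the 10 regulators passed the threshold in limma under any of the 15 alternatives (14 for Ppara, which the filter on the lower 50% of features removes); their adjusted p-values ran from 0.983 to 1.00. No gene of the pathway or marker lists passed under any of them either. Ppargc1a, Ppargc1b, Ppara, Ppard and Tfam kept their direction throughout, though single mice moved all of them but Tfam by over 1.5 times; the median of the 10 ran from -0.044 to -0.0072, both reached without 1 mouse. The sign of 5 genes near 0 turned, and the cause was not tested: Esrra to -0.014 (without 1 mouse it ran from -0.014 to 0.13), Esrrg to 0.019 without control mouse 3 and 0.042 without ATF4 mKO mouse 1 (-0.060 to 0.042), Prkaa1 to 0.034 with array weights, 0.048 without control mouse 2 and 0.050 without ATF4 mKO mouse 3 (-0.11 to 0.050), Prkaa2 to -0.099 without control mouse 2 and -0.021 without ATF4 mKO mouse 3 (-0.099 to 0.086), and Sirt1 to 0.0051 without control mouse 1 and 0.024 without ATF4 mKO mouse 3 (-0.13 to 0.024). The lowest unadjusted p over the alternatives was 0.0161 for Ppara, 0.0268 for Tfam and 0.0347 for Ppargc1a. The count of changed features, 2 of 16755, was 1 with median centring, 1 with the replicate block, 4 with features of 1 symbol only, 5 without the lowest 33.3% of features by level, 7 without the lower 50% of features, 7 with an intensity trend and robust moderation, 0 without variance moderation and 1 to 1 without each mouse. Deviations of same-numbered mice correlated at -0.0021, 0.069 and 0.14, and those of different-numbered mice at -0.12 to 0.060. With 3 mice per group these values cannot decide whether the numbers pair the mice. As nothing states a pairing, the main fit did not use the numbers. With the replicate block 0 of the 10 regulators passed. Of the 4 gene pairs, added after the data were seen, Prkaa1 minus Prkaa2 turned from -0.038 to 0.027 with array weights, 0.071 without ATF4 mKO mouse 3 and 0.15 without control mouse 2 (-0.17 to 0.15 without 1 mouse). Without 1 mouse, Ppargc1a minus Ppargc1b ran from -0.31 to -0.15, Esrra minus Esrrg from 0.013 to 0.13 and Ppara minus Ppard from 0.25 to 0.45. List medians without 1 mouse ran from -0.059 to 0.0040 for coactivators, -0.014 to 0.049 for nuclear receptors, 0.0056 to 0.059 for PPAR targets, 0.020 to 0.058 for PGC-1 and ERR targets, -0.030 to 0.061 for mitochondrial DNA factors, -0.017 to 0.025 for AMPK subunits, 0.022 to 0.072 for AMPK regulators and substrates, -0.012 to 0.017 for sirtuins and NAD genes and 0.011 to 0.046 for activators of Ppargc1a. No other feature of 1 symbol existed for any of the 10 genes, so the alternative of using one was not run.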
